A study of Mus musculus with 14 samples.

Results

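The genes described here encode 10 integrin subunits of myeloid cells, the alpha subunits Itgal, Itgam, Itgax, Itga4, Itga6 and Itgav and the beta subunits Itgb1, Itgb2, Itgb5 and Itgb7. They were picked by gene symbol, with earlier results of these data known, and are 10 of the 14084 genes in the count table. All 10 passed the filter on low counts that left 13861 genes. RNA was sequenced from microglia, the resident macrophages of the brain, sorted by flow cytometry from the cerebral cortex of C57BL/6 mice aged 8 to 10 weeks. There were 14 libraries in 7 groups of 2. Stroke mice, taken at day 1, 3, 7, 21, 60 or 90, had the distal middle cerebral artery tied permanently with 10-0 sutures and both common carotid arteries closed for 7 min. Sham mice had only lesions of the skull surface, and all mice were otherwise of the same strain and untreated as far as the labels say. The sources used here do not give the sort markers, the time at which sham mice were sampled or whether the 2 libraries of a group came from different animals. The p-values therefore speak only of the spread between libraries, which may be technical.

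Integrins are cell surface receptors built from 1 alpha and 1 beta chain, and which chains pair sets what the cell can hold on to. Itgb2 pairs with Itgal (LFA-1), Itgam (complement receptor 3, also called Mac-1 or CD11b) and Itgax (CD11c) to form the leukocyte integrins, which bind ICAMs and complement fragments. Itgb7 and Itgb1 both pair with Itga4, whose partners include VCAM-1. Itga6 with Itgb1 is a laminin receptor, and Itgav with Itgb5 binds vitronectin and takes part in the uptake of dying cells through the bridging protein encoded by Mfge8. In the brain, CD11b is a common marker of microglia. CD11c, which dendritic cells also carry, marks a subset of microglia seen in development, ageing and disease.

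Total counts were between 15254983 and 28758420 in the 7 replicate 1 libraries and between 100625099 and 191692779 in the 7 replicate 2 libraries, 6.60 to 9.19 times as many within a group. No member was near the limit of detection, with at least 232 counts in every library. All 10 microglia markers examined were detected, and their summed level was 2533 to 26121 CPM (counts scaled to a fixed library total) in stroke libraries and 1463 to 2523 in sham libraries. The sham libraries went against their label in part. Summed neutrophil markers were 367 to 6555 CPM in stroke libraries and 16570 and 28979 in sham libraries, where they exceeded the microglia markers in both. Summed monocyte markers were 230 to 8110 CPM in stroke libraries and 6104 and 12900 CPM in sham libraries. The day 21 libraries also stood apart from each other, with neutrophil markers at 6555 CPM in replicate 1 and 806 CPM in replicate 2, and dendritic cell markers at 2045 and 38.0 CPM. Since several members are also made by neutrophils, monocytes and lymphocytes, these values stand beside the results they move with, and their part in those results was not tested. In bulk RNA, fewer cells of a type and less RNA per cell cannot be told apart.

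Sequences are shown for a run that Itgax shares with a neighbouring gene and for promoters of 3 members. Itgax lies on chromosome 7 beside its paralogue Itgad (CD11d), another alpha partner of Itgb2. The run below is the longest stretch in which the Itgax and Itgad transcripts are identical, 188 coding bases, and reads that fall inside it cannot be assigned to either gene. It is printed in capitals, with 30 flanking coding bases in lower case on each side, 5′ to 3′, from GRCm38 with the GENCODE M21 annotation. Run and flanks together span exons 11 to 13 of 30 in Itgax, within chr7:128135582-128136092 on the plus strand. In Itgad they span exons 12 to 14 of 31, within chr7:128189310-128189819 on the plus strand.
Itgax: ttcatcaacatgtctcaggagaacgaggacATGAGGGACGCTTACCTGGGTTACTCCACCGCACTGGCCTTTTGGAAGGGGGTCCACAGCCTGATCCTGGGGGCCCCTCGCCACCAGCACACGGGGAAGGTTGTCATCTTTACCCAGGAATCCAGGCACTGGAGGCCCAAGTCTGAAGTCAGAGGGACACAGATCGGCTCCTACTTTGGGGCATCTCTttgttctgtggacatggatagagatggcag
Itgad: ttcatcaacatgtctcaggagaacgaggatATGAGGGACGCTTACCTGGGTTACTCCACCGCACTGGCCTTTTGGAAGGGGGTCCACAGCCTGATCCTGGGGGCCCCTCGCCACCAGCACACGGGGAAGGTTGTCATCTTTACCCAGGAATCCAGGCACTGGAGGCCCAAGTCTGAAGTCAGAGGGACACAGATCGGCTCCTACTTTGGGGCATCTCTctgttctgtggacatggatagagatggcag
Counted from 1 at the 5′ end, the printed stretches differ at 2 of 248 positions, C30T and T219C, with the Itgax base first. Of the 50-base words in the Itgax transcripts, 384 (8.02%) also occur in Itgad, where they are 8.43% of the words. Itgax is not the only such member. Of the words of Itgam, Itgb5 and Itga6, 66.3, 7.25 and 5.31% occur in another gene, and of the remaining members at most 1.05%.

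Promoters were in the RefSeq table (GRCm38.p6) for 7 of the 10 members: Itga4, Itgav, Itgam, Itgax, Itgb1, Itgb7 and Itgb5. The 250 bases before the annotated start of Itgam, Itgax and Itgb5 are printed because CD11b and CD11c are the usual myeloid markers and Itgb5 changed at every time. Capitals mark 3 motifs on either strand, GAGGAA (the core bound by the myeloid factor PU.1), TGANTCA (bound by AP-1) and GGGCGG (the GC box bound by Sp1), none of which overlap each other here.
Itgam, chr7:128062390-128062639, plus strand: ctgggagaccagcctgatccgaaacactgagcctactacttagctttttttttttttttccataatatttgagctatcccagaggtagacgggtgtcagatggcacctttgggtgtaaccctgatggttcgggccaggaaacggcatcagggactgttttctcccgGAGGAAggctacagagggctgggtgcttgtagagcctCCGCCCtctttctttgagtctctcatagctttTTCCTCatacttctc
Itgax, chr7:128129300-128129549, plus strand: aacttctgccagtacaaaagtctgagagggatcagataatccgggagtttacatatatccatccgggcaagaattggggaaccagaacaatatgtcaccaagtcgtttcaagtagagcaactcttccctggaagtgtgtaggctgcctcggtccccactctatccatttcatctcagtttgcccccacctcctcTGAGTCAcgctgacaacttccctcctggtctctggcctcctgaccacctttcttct
Itgb5, chr16:33829415-33829664, plus strand: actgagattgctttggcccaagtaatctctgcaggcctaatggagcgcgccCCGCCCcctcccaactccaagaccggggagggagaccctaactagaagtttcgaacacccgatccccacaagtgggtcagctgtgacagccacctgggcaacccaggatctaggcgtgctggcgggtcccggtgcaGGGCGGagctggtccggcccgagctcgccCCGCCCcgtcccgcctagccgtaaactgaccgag
The Itgam window holds GAGGAA 84 and 15 bases before the start and GGGCGG 47 bases before it. The Itgax window holds TGANTCA 56 bases before the start, and the Itgb5 window holds GGGCGG 199, 63 and 34 bases before it. Of the 32851 promoter windows of the same length in the table, 23.3% hold GAGGAA, 6.75% TGANTCA and 32.7% GGGCGG. The other 4 windows held GAGGAA in Itgav and Itgb1, GGGCGG in Itga4 and Itgb1, and none of the motifs in Itgb7. These are matches of letters only.

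Compared per kilobase of exon, since a longer transcript yields more reads, the mean level over the 14 libraries was highest for Itgb2, at 325 CPM per kb, and Itgb5, at 274 CPM per kb. Itgam averaged 130, Itgb1 85.8, Itgb7 75.5, Itgax 45.2 and Itgal 27.0 CPM per kb. Itga6 at 11.7, Itgav at 7.40 and Itga4 at 4.36 CPM per kb were the lowest of the members. In the rest of the text, levels of a gene are CPM scaled by TMM factors, given for replicate 1 and then replicate 2, and folds are on the log2 scale with their standard error (SE).

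**Figure D1:**
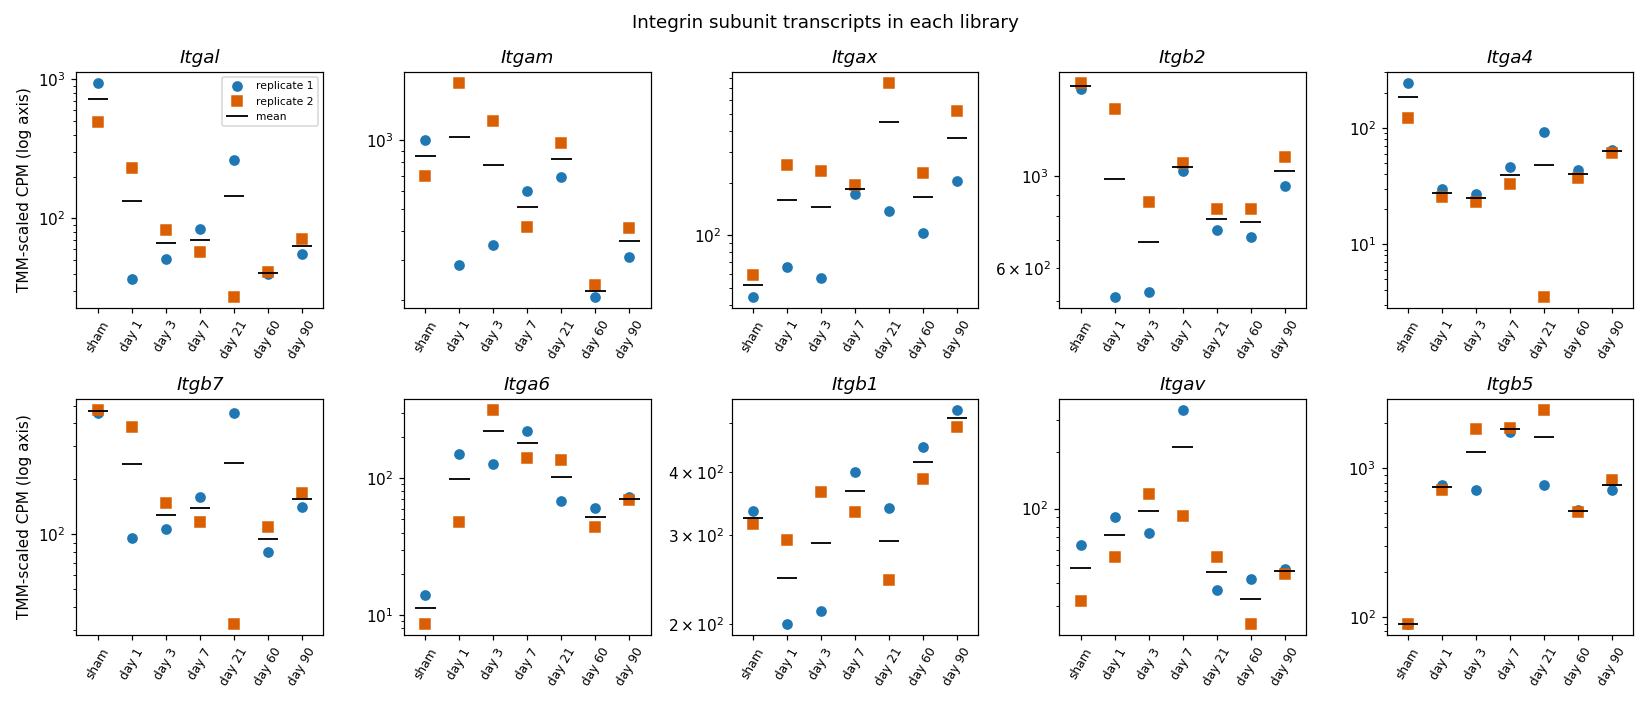
TMM-scaled CPM of the 10 integrin genes in each of the 14 libraries, on a log axis whose range differs between panels, with sham at the left of each panel and the times after stroke to its right. Circles are replicate 1, squares replicate 2 and lines the mean of 2. All 12 stroke libraries lie above both sham libraries for Itga6 and Itgb5, and all 12 lie below both for Itgal, Itga4 and Itgb2.

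Itgb5 was higher after stroke at all 6 times and Itga6 at 5 of them, while Itgal was lower at day 7 and day 60, and Itgal and Itga4 were lower over all stroke times together. Called here means an adjusted p under 0.05 in edgeR's quasi-likelihood test with Benjamini-Hochberg adjustment over the 13861 genes. From day 1 to day 90 in order, members called higher numbered 2, 2, 3, 2, 1 and 2 of 10, where 3.18, 5.2, 7, 5, 4.96 and 5.12% of all genes were called higher. Members called lower numbered 0, 0, 1, 0, 1 and 0, where 1.37, 3.07, 5.63, 1.44, 2.89 and 2.73% of all genes were called lower. At the times with 0 members called lower by edgeR, DESeq2 called 2 at day 1 and at day 3, and 1 at day 21 and at day 90. Members with an unadjusted p under 0.05, in either direction, numbered 4, 5, 5, 4, 6 and 4 of 10 from day 1 to day 90, where 21.8, 26.2, 29, 24.8, 26.9 and 26.2% of all genes had one. The median log2 fold change of the 10 members lay between -0.82 and -0.06, against 0.04 to 0.15 for all genes. At a single time, both libraries lay above both sham libraries for 3 or 4 members and for 22.2 to 36.4% of all genes. Both lay below for 3 to 5 members and for 23 to 27.6% of all genes.

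Itgb5, the beta chain of the vitronectin receptor, had 89.5 and 89.3 CPM in sham libraries. It had 773 and 710 CPM at day 1, 714 and 1837 at day 3, 1761 and 1873 at day 7, 772 and 2462 at day 21, 521 and 504 at day 60, and 708 and 833 at day 90. The sham libraries were alike, and every stroke library was several times higher, without overlap. The change was called at all 6 times, with log2 fold changes of 3.05 ± 0.62 at day 1 (SE, n = 2 libraries against 2; edgeR adjusted p = 0.019), 3.83 ± 0.65 at day 3 (0.0062) and 4.35 ± 0.66 at day 7 (0.0036). It was 4.18 ± 0.66 at day 21 (edgeR adjusted p = 0.0054), 2.52 ± 0.61 at day 60 (0.030) and 3.11 ± 0.63 at day 90 (0.014). Day 7 was 20.3 times sham by fitted level. In the order of group means, day 7, day 21, day 3, day 90 and day 1 each overlapped the next, and only day 60 and then sham lay apart below them. Summed microglia markers were also higher in all 12 stroke libraries than in either sham library. In replicate 2 of day 1 the margin was narrow, at 2533 CPM against 2523 CPM in sham replicate 1. Their part in this result was not tested. The day 7 call held without any 1 library (edgeR adjusted p up to 0.041), while leaving out either sham library ended the call at each other time (up to 0.181). So did leaving out replicate 1 of day 1 for day 1 (adjusted p = 0.061), any day 60 or day 90 library for day 60 (0.054 to 0.131) and replicate 2 of day 90 for day 90 (0.063).

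Itgav, the alpha partner of Itgb5, had 63.4 and 32.0 CPM in sham libraries. It had 89.6 and 55.2 CPM at day 1, 73.8 and 120 at day 3, 339 and 91.4 at day 7, 36.3 and 55.1 at day 21, 41.6 and 23.9 at day 60, and 47.4 and 44.6 at day 90. Both day 3 and both day 7 libraries were above both sham libraries, and the other times overlapped sham. It was called at day 7 alone, at 2.17 ± 0.63 (SE; edgeR adjusted p = 0.043), and replicate 1 of day 7 carried much of that value, since without it the log2 fold change was 0.94 (edgeR adjusted p = 0.386). Leaving out either sham library (0.098 and 0.212) or any library of day 60 or day 90 (0.058 to 0.066) ended that call too. Per kb, Itgav over Itgb5 was 0.0074 to 0.0636 in stroke libraries and 0.118 and 0.234 in sham libraries.

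Itga6, the laminin receptor chain, had 14.1 and 8.58 CPM in sham libraries. It had 150 and 47.9 CPM at day 1, 126 and 315 at day 3, 222 and 140 at day 7, 67.6 and 135 at day 21, 60.2 and 43.9 at day 60, and 72.3 and 68.7 at day 90. The lowest stroke library, at day 60, was still above both sham libraries. Summed microglia markers were 2533 to 26121 CPM in stroke libraries and 1463 to 2523 CPM in sham libraries, and their part was not tested. Itga6 was called higher at 5 of 6 times, with log2 fold changes of 3.13 ± 0.67 at day 1 (SE; edgeR adjusted p = 0.023), 4.29 ± 0.70 at day 3 (0.0057) and 4.0 ± 0.69 at day 7 (0.0059). It was 3.17 ± 0.67 at day 21 (edgeR adjusted p = 0.020) and 2.64 ± 0.65 at day 90 (0.033), and 2.20 ± 0.64 at day 60 (0.056), which was not called. The highest group mean, at day 3, was 19.5 times that of sham, and sham was apart from its nearest neighbour in the order, day 60. Without sham replicate 2 the call was lost at every time at which it had been made (edgeR adjusted p of 0.058 to 0.177), with values on the same side. Leaving out sham replicate 1 ended it at day 1, day 21 and day 90 (adjusted p up to 0.113), as did replicate 1 of day 1 for day 1 (0.134), replicate 2 of day 21 for day 21 (0.101) and any day 60 or day 90 library for day 90 (up to 0.119). Without any 1 library of day 1, day 3 or day 21, day 60 was called as well (0.029 to 0.0495).

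Itgb1, the common beta chain that pairs with Itga6, Itga4 and Itgav, had 335 and 315 CPM in sham libraries. It had 200 and 294 CPM at day 1, 213 and 365 at day 3, 400 and 334 at day 7, 340 and 244 at day 21, 448 and 388 at day 60, and 531 and 492 at day 90. Both day 1 libraries were below sham and both day 60 and day 90 libraries were above it. No time was called, with log2 fold changes between -0.40 and 0.65 (edgeR adjusted p of 0.354 to 0.858), and its group means spanned 2.07 times, the narrowest range among the members. Per kb, Itga6 over Itgb1 was 0.0512 to 0.39 in stroke libraries and 0.0123 and 0.019 in sham libraries.

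**Figure D2:**
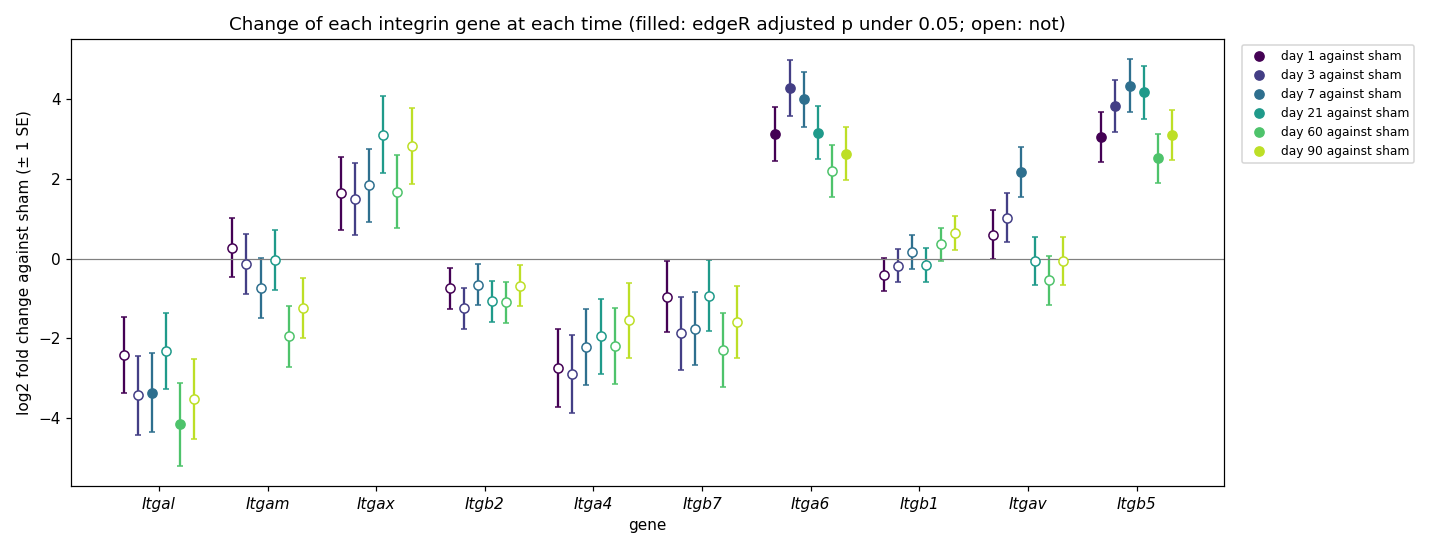
Log2 fold change of each integrin gene at each time after stroke against sham, from the edgeR model fitted to all 14 libraries, with bars of 1 SE. Filled points have an adjusted p under 0.05: all 6 times of Itgb5, 5 of Itga6, 2 of Itgal (day 7 and day 60) and 1 of Itgav (day 7).

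Among the leukocyte integrins, edgeR called Itgal lower at 2 times, while it did not call Itgb2, Itgax or Itgam at any single time. DESeq2 called Itgal lower at every time, Itgax higher at day 21 and day 90, and Itgam lower at day 60. Itgal, the alpha chain of LFA-1, had 950 and 491 CPM in sham libraries. It had 36.5 and 232 CPM at day 1, 50.8 and 82.8 at day 3, 83.4 and 57.3 at day 7, 263 and 27.2 at day 21, 39.6 and 41.3 at day 60, and 55.1 and 71.1 at day 90. Every stroke library was below both sham libraries, and the highest of them was replicate 1 of day 21. The log2 fold change was -3.36 ± 1.00 at day 7 (SE; edgeR adjusted p = 0.046) and -4.16 ± 1.03 at day 60 (0.033), both called. At day 3 it was -3.43 ± 1.00 (edgeR adjusted p = 0.055) and at day 90 -3.51 ± 1.00 (0.052), at day 1 -2.42 ± 0.96 (0.168) and at day 21 -2.31 ± 0.95 (0.160), none called. Leaving out replicate 1 of day 21 brought day 21 to -4.70 (edgeR adjusted p = 0.016). The 2 calls did not hold without 1 sham library (edgeR adjusted p up to 0.193 at day 7 and 0.160 at day 60). Nor did they hold without 1 library of their own time (up to 0.227 and 0.214) or of day 90, and for day 7 also of day 3 or day 60 (0.057 to 0.075). Without any 1 library of day 1 or day 21, day 3 and day 90 were called as well (0.015 to 0.031). Summed neutrophil markers (11 of 12 listed genes were in the table, all detected in sham) were likewise below both sham libraries in all 12 stroke libraries, and their part in this result was not tested.

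Itgb2, the beta chain of all leukocyte integrins, had 1614 and 1672 CPM in sham libraries. It had 512 and 1448 CPM at day 1, 526 and 863 at day 3, 1025 and 1071 at day 7, 743 and 831 at day 21, 715 and 830 at day 60, and 947 and 1107 at day 90. All 12 stroke libraries were below both sham libraries, and replicate 2 of day 1 came closest to them. Summed neutrophil markers were also below both sham libraries in all 12, and replicate 2 of day 1 had the highest monocyte sum among stroke libraries, at 8110 CPM against 6104 and 12900 CPM in sham libraries. No single time was called, with log2 fold changes between -1.24 ± 0.52 at day 3 (SE; edgeR adjusted p = 0.154) and -0.65 ± 0.51 at day 7 (0.435).

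Itgam, the gene of CD11b, had 1006 and 696 CPM in sham libraries. It had 285 and 1783 CPM at day 1, 349 and 1212 at day 3, 600 and 419 at day 7, 691 and 970 at day 21, 207 and 234 at day 60, and 309 and 415 at day 90. The libraries of day 1 and of day 3 fell on opposite sides of sham, with replicate 2 high, while both libraries of day 7, day 60 and day 90 were below it. Log2 fold changes ran from -1.95 ± 0.78 at day 60 (SE; edgeR adjusted p = 0.134) to 0.28 ± 0.75 at day 1 (0.872), and none was called. In GENCODE M21, 68.7% of the Itgam exon bases are also exon of Gm49368, a same-strand gene model that is not in the count table. The sources used here do not say how reads of such overlaps were counted.

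Itgax, the gene of CD11c, had 44.2 and 58.9 CPM in sham libraries. It had 65.4 and 256 CPM at day 1, 56.5 and 236 at day 3, 173 and 196 at day 7, 137 and 757 at day 21, 103 and 228 at day 60, and 207 and 522 at day 90. Of the 12 stroke libraries 11 were above both sham libraries, and replicate 1 of day 3 lay between them. Log2 fold changes were 1.5 to 3.12, largest at day 21 (3.12 ± 0.96, SE; edgeR adjusted p = 0.075) and at day 90 (2.82 ± 0.95; 0.088), and none was called. Without replicate 1 of day 21, Itgax was called at day 21 (3.91; edgeR adjusted p = 0.017) and day 90 (0.043), and without replicate 2 at day 90 (0.045). DESeq2, with all libraries, called Itgax higher at day 21 and day 90. In level, replicate 2 was above replicate 1 in all 7 groups, by 1.13 to 5.51 times. Itgad, whose identical run is printed above, had 0.113 to 0.393 CPM in the 7 replicate 1 libraries and 20.5 to 744 CPM in the 7 replicate 2 libraries. Its counts were 0.000666 to 0.00686 times those of Itgax in replicate 1 and 0.348 to 1.02 times in replicate 2. With Itgad counts added to Itgax, an alternative chosen after seeing the data, log2 fold changes were 1.84 to 3.72 and still none was called. Summed microglia markers were 2533 to 26121 CPM in stroke libraries and 1463 to 2523 CPM in sham libraries. Summed dendritic cell markers were 38.0 to 2045 CPM in stroke libraries and 186 and 207 CPM in sham libraries. The part of either cell type in the Itgax levels was not tested.

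**Figure D3:**
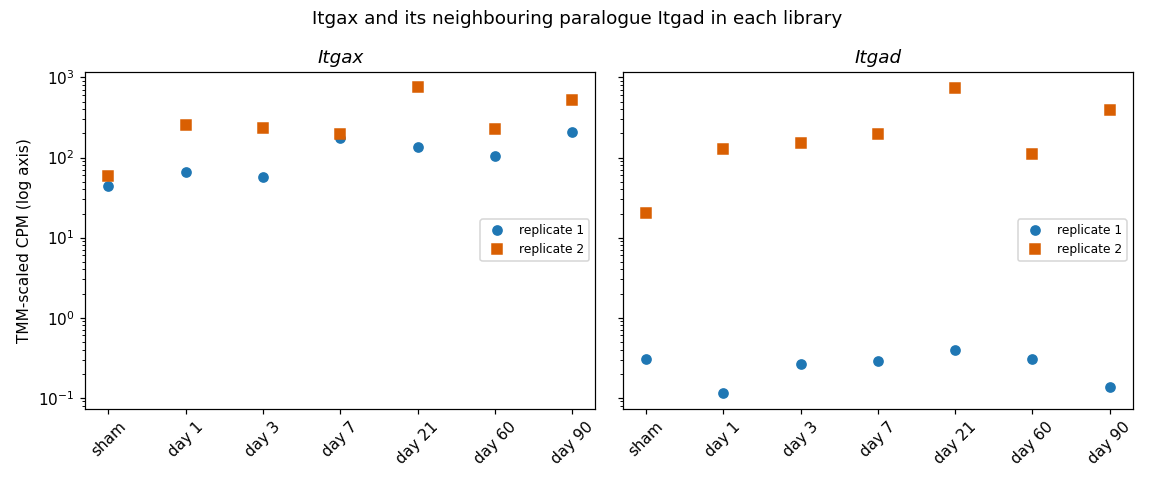
TMM-scaled CPM of Itgax (left) and its neighbouring paralogue Itgad (right) in each library, on a shared log axis, with sham first and the times after stroke following. Replicate 1 libraries (circles) hold under 1 CPM of Itgad and replicate 2 libraries (squares) hold 20.5 to 744 CPM.

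The make-up of the alpha chains that can pair with Itgb2 was taken per kb, so that the genes can be compared. Itgal made up 1.17 to 19.4% of the sum of Itgal, Itgam and Itgax in stroke libraries (median 7.38%) and 33.1 and 40.8% in sham libraries. Itgax made up 12 to 53.8% in stroke libraries (median 26.1%) and 2.6 and 5.44% in sham libraries. Itgam was the largest part in 10 of the 12 stroke libraries and in both sham libraries, at 40.9 to 80.0% after stroke against 56.6 and 61.4% in sham. In replicate 2 of day 60 and of day 90, Itgax at 47.3 and 53.8% exceeded Itgam at 46.4 and 40.9%. These shares are descriptions of single libraries. Itgad, which was high only in replicate 2, is not part of the sum. Whether reads of the run it shares with Itgax were counted for either gene is not known.

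**Figure D4:**
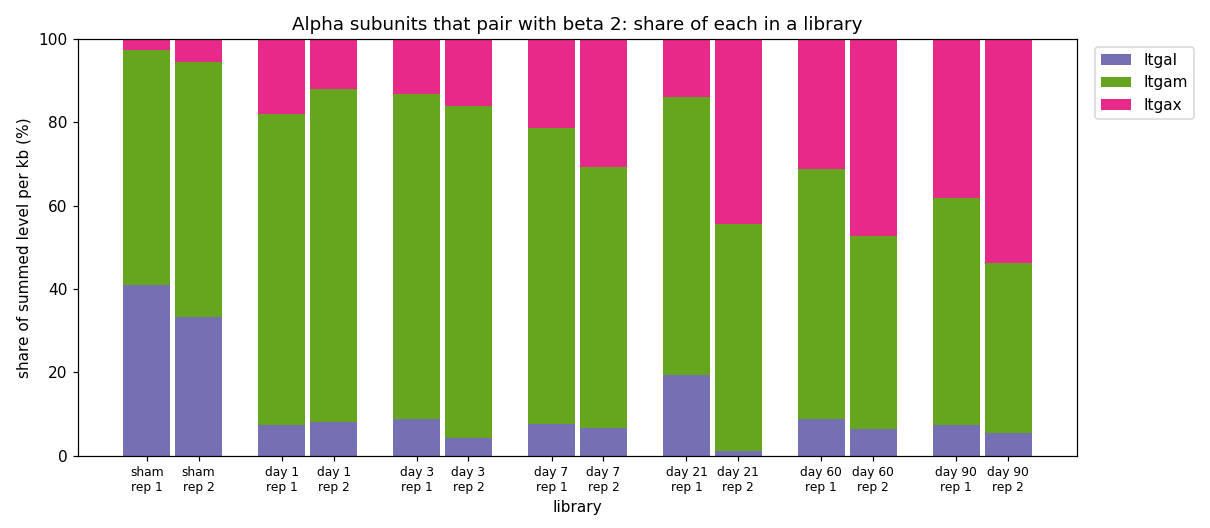
Share of Itgal, Itgam and Itgax in their summed level per kb of exon, in percent, for each library, with sham at the left and the times after stroke to its right. The Itgal share is at most 19.4% after stroke and 33.1 and 40.8% in sham libraries, and the Itgax share is 12 to 53.8% after stroke and 2.6 and 5.44% in sham libraries.

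Itga4 and Itgb7, which pair as the gut homing and VCAM-1 binding integrin of leukocytes, lay below both sham libraries in 12 and 11 of the 12 stroke libraries. Itga4 had 245 and 122 CPM in sham libraries. It had 29.6 and 25.3 CPM at day 1, 26.8 and 22.9 at day 3, 46.3 and 32.7 at day 7, 91.9 and 3.51 at day 21, 43.6 and 37.3 at day 60, and 64.5 and 61.5 at day 90. All 12 stroke libraries were below both sham libraries, and the widest gap within a group was at day 21, where replicate 1 also held more neutrophil markers than replicate 2. Over all libraries the neutrophil sums, too, were lower in all 12 stroke libraries than in either sham library, while summed T and NK cell markers were 5.94 to 201 CPM in stroke libraries and 49.6 and 73.0 CPM in sham libraries. Log2 fold changes were -2.89 to -1.54 and no single time was called (edgeR adjusted p of 0.090 to 0.321). DESeq2 called Itga4 lower at day 1, 3 and 7, and limma-voom called it lower at day 21. Without the day 21 libraries, whose spread enters the shared estimate, Itga4 was called lower at all 5 remaining times (edgeR adjusted p of 0.0033 to 0.037), and so it was without either 1 of them (up to 0.042). Without replicate 1 of day 21 it was also called at day 21 (-5.68; edgeR adjusted p = 0.00098).

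Itgb7 had 456 and 474 CPM in sham libraries. It had 95.8 and 384 CPM at day 1, 106 and 148 at day 3, 159 and 117 at day 7, 458 and 32.3 at day 21, 80.4 and 109 at day 60, and 141 and 168 at day 90. Replicate 1 of day 21 was level with sham and its partner was the lowest library of all, while the other 10 stroke libraries were below sham. Log2 fold changes were -2.30 to -0.92 and no time was called (edgeR adjusted p of 0.139 to 0.575). DESeq2 called Itgb7 lower at day 60. Without replicate 1 of day 21, the log2 fold change at day 21 was -3.81 (edgeR adjusted p = 0.013), and without replicate 2 it was -0.021 (0.995). Without either day 21 library, Itgb7 was called lower at day 60 (0.028). In the same pair, Itgal was 263 against 27.2 CPM. Summed dendritic cell markers were 2045 against 38.0 CPM, monocyte markers 3560 against 230 and neutrophil markers 6555 against 806. T and NK cell markers were 142 against 83.5 CPM, while B cell markers went the other way, at 158 against 298 CPM. The part of these cells was not tested.

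All stroke times together were then set against sham, which answers whether a gene differed after stroke whatever the time. Called members were Itgb5 and Itga6, higher, and Itgal and Itga4, lower, beside 8.56% of all genes called higher and 11.3% called lower. The log2 fold change over 12 stroke against 2 sham libraries was 3.51 ± 0.58 for Itgb5 (SE; edgeR adjusted p = 0.0021) and 3.24 ± 0.61 for Itga6 (0.0042). It was -3.20 ± 0.56 for Itgal (edgeR adjusted p = 0.0028) and -2.25 ± 0.59 for Itga4 (0.020). Itgax at 2.10 ± 0.81 (edgeR adjusted p = 0.088), Itgb7 at -1.57 ± 0.60 (0.087) and Itgb2 at -0.91 ± 0.36 (0.099) were not called. Itgam at -0.63 ± 0.54, Itgav at 0.52 ± 0.48 and Itgb1 at 0.08 ± 0.32 were not called either. Without sham replicate 1 the adjusted p was 0.080 for Itgal and 0.300 for Itga4, and without sham replicate 2 it was 0.060 for Itga6 and 0.058 for Itga4. The Itgb5 call held without any 1 library (adjusted p up to 0.041). Without replicate 1 of day 21, Itgax (2.25; edgeR adjusted p = 0.039) and Itgb7 (-2.03; 0.0030) were called too. Without replicate 2 of day 21 Itgb7 (0.024), and without replicate 2 of day 1 Itgb7 (0.044) and Itgb2 (0.020), were called. With all libraries, DESeq2 also called Itgax, higher, and Itgb7, lower. Groups did not overlap for 2 members that were higher and 3 that were lower, where 10.3% and 10.9% of all genes did so.

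Late times (day 21, 60 and 90) were set against early times (day 1, 3 and 7), a comparison without the sham libraries. Itgav was the 1 member called, and it was lower, beside 0.649% of all genes called lower and 2.18% called higher. It averaged 41.5 CPM in the 6 late libraries and 128 CPM in the 6 early libraries. The highest late library, at 55.1 CPM, was just below the lowest early one, at 55.2 CPM. The log2 fold change was -1.49 ± 0.36 (SE; edgeR adjusted p = 0.049). That call held only without replicate 2 of day 7 and was lost without any other 1 of the 14 libraries (adjusted p up to 0.159). Itga6 averaged 74.6 CPM late and 167 CPM early, a log2 fold change of -1.14 ± 0.36 (edgeR adjusted p = 0.124), and Itgax 326 CPM late and 164 CPM early, 0.88 ± 0.52 (0.438). Without replicate 2 of day 21, Itga4 was called higher at late times (edgeR adjusted p = 0.0499). Itgb5, Itgal and Itgb2 had log2 fold changes of -0.48, -0.26 and -0.06, none called. In the joint test of all 7 groups, which called 7.21% of genes, Itgb5 (edgeR adjusted p = 0.024) and Itga6 (0.030) were called, and Itgal (0.058) and Itgav (0.074) were next.

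Because replicate 2 libraries were so much deeper, each change was also computed within a replicate number. Itgb5 ranged from 2.54 to 4.30 on the log2 scale in replicate 1 and from 2.5 to 4.78 in replicate 2, and Itga6 from 2.10 to 3.98 and from 2.35 to 5.19. Itgal ranged from -4.70 to -1.85 in replicate 1 and from -4.17 to -1.08 in replicate 2. Itgax was 0.35 to 2.23 in replicate 1 and 1.73 to 3.68 in replicate 2, with replicate 2 above replicate 1 at 5 of 6 times and below it at day 7 (1.73 against 1.97). The sign was the same in both replicate numbers for 9, 8, 10, 6, 10 and 9 of the 10 members from day 1 to day 90, against 58.4, 64.6, 82.1, 71.2, 80.6 and 80.2% of all genes. Itgam changed sign between the numbers at day 1, day 3 and day 21.

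**Figure D5:**
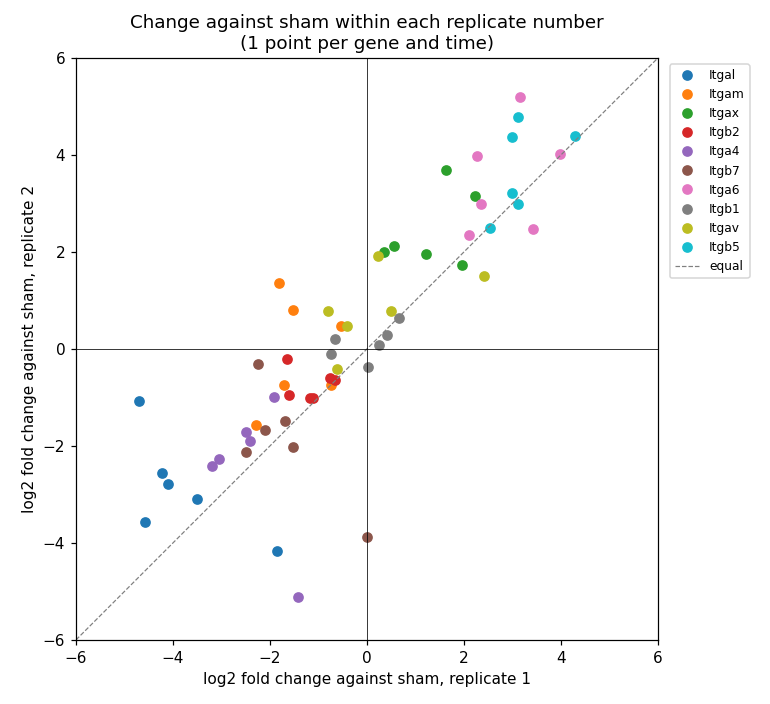
Log2 fold change against sham computed from the replicate 2 libraries (y axis) plotted on that from the replicate 1 libraries (x axis), 1 point per integrin gene and time, coloured by gene. Itgb5 and Itga6 lie in the upper right with at least 2.10 on both axes, Itgal and Itga4 in the lower left, and the lowest Itgb7 point, near the y axis, is day 21.

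Of 16 other integrin subunits listed, 14 were in the table. Itga9, an alpha partner of Itgb1 that binds osteopontin, tenascin and VCAM-1, was called higher at all 6 times, and it was the 1 subunit of this list called higher at any time. It had 8.81 to 43.0 CPM in stroke libraries and 0.364 and 0.190 CPM in sham libraries, log2 fold changes of 5.70 to 7.18 (edgeR adjusted p at most 0.0013). Called lower were the platelet chains Itga2b (day 7 and day 60) and Itgb3 (day 1 and day 7) and the collagen receptor chain Itga1 (day 7 and day 60). Itga2b had 0 to 1.98 CPM in stroke libraries and 30.4 and 33.3 CPM in sham libraries. Summed platelet markers, a list that holds Itga2b, were 4.37 to 1081 CPM in stroke libraries and 79.3 and 109 CPM in sham libraries. Summed erythroid markers, of which 2 of 8 were in the table, were 0 to 4.41 CPM in stroke libraries and 198 and 206 CPM in sham libraries. The part of either cell type in the lower Itga2b was not tested. Itgb8, another partner of Itgav, was listed at no more than 0.331 CPM in any library. Over all stroke times, the median log2 fold change was 0.91 for the 14 subunits, 1.25 for the ligands, -0.86 for the activation genes, -1.14 for the signalling genes, 1.26 for the lateral partners and -0.04 for the latent TGF-beta genes described next, against 0.09 for all genes. Placing the 2 list genes without a count in sham, Itgb8 and Madcam1, at their bound of 3 counts over the group left these list medians as they were.

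Integrin ligands were called higher for 4, 5, 6, 8, 5 and 6 of 21 genes from day 1 to day 90, and lower for 0, 0, 2, 0, 1 and 1. Across the 6 times, 3.18 to 7% of all genes were called higher and 1.37 to 5.63% lower. Spp1 (osteopontin), F11r (JAM-A, a ligand of LFA-1) and Vcam1 were called higher at all 6 times. Spp1 had 1072 to 75152 CPM in stroke libraries and 10.1 and 71.0 CPM in sham libraries, with log2 fold changes of 5.82 to 10.77. Vcam1 had 5.22 to 119 CPM in stroke libraries and 0.121 and 0.808 CPM in sham libraries, and late times were above early ones by 3.05 ± 0.37 (SE; edgeR adjusted p = 0.0015). Mfge8, which links dying cells to Itgav integrins, was called from day 7 on, with 914 and 1025 CPM at day 90 against 12.6 and 15.7 CPM in sham libraries, and late exceeded early times by 2.73 ± 0.25 (0.00021). The laminin chain gene Lamc1 was called higher at 5 times, at 2.80 to 4.27. Fn1, fibronectin, was called lower at day 60 (-4.15 ± 0.91) and day 90 (-3.19 ± 0.87), and Spp1 and Fn1 were lower at late than at early times (-2.75 ± 0.59 and -2.45 ± 0.49).

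Genes that regulate the switch of integrins to the binding state were mostly called lower where they were called. Among the 17 listed, Dok1, Itgb1bp1, Flna and Sharpin can hold integrins inactive, and they were not called at any single time. Of 17, those called lower numbered 1, 2, 4, 3, 1 and 2 from day 1 to day 90, and those called higher 0, 1, 1, 1, 0 and 1. The shares of all genes were 1.37 to 5.63% called lower and 3.18 to 7% called higher. Apbb1ip (RIAM, which recruits talin) was called lower at all 6 times, at 17.9 to 39.6 CPM in stroke libraries against 122 and 119 CPM in sham libraries (log2 fold changes of -2.66 to -1.70; edgeR adjusted p at most 0.025). Rasgrp2, an activator of Rap1, was called lower at day 7, 21 and 90, and Rassf5 (RAPL) at day 3 and day 7. All 3 genes were below both sham libraries in every stroke library. So were summed neutrophil markers, at 367 to 6555 CPM after stroke against 16570 and 28979 CPM in sham libraries. Summed monocyte markers were 230 to 8110 CPM against 6104 and 12900 CPM, and the part of either cell type was not tested. Tln2, the second talin gene, was the 1 gene called higher, at day 3, 7, 21 and 90 (3.96 to 6.22), while Tln1 and Fermt3, the main talin and kindlin genes of blood cells, were not called at any time. Skap1, an adaptor best known from T cells, was higher at late than at early times (4.23 ± 0.67; edgeR adjusted p = 0.0060). Summed T and NK cell markers were 83.5 to 201 CPM in the late libraries and 5.94 to 42.7 CPM in the early libraries.

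Of 24 genes of signalling below integrins, those called lower numbered 0, 3, 4, 0, 3 and 3 from day 1 to day 90, and those called higher 0, 1, 0, 1, 0 and 1. Again, 1.37 to 5.63% of all genes were called lower and 3.18 to 7% higher. At day 1, where edgeR called 0, 9 of the 24 had an unadjusted p under 0.05, as did 21.8% of all genes. Fgr, a Src family kinase of myeloid cells, and Zyx, the focal adhesion protein zyxin, were called lower at day 3, 7, 60 and 90, at -3.19 to -2.18 and -3.66 to -2.92. Fgr, Zyx and the summed neutrophil markers were all below both sham libraries in every stroke library, and the part of neutrophils was not tested. Of 9 lateral partners, the tetraspanin gene Tspan4 was called higher at all 6 times (6.22 to 7.27; 26.0 to 254 CPM in stroke libraries against 1.09 and 1.41 CPM in sham libraries), and Cd81 at 5 (3.02 to 5.11). Cd82 was called lower at day 1, 3 and 7 (-2.46 to -1.96) and was higher at late than at early times (1.15 ± 0.26; edgeR adjusted p = 0.036). Of 10 genes of latent TGF-beta, which Itgav integrins can activate, Ltbp3 was called higher at all 6 times (3.70 to 5.57) and Lrrc32 at day 21, 60 and 90 (4.4 to 5.29). Tgfb1 itself was not called at any time.

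The members were also ordered by how alike their levels ran over the 14 libraries, as a description that depth and cell make-up enter. Itga6 and Itgb5 ran most alike (Pearson r = 0.924 of log2 CPM), followed by Itgal and Itgb7 (0.920) and Itga4 and Itgb7 (0.792). Itga4 and Itgb5 ran most opposite (-0.753). Among the 7600 genes whose log2 CPM averaged 3 or more, those most like Itgb5 included Pald1 (0.979) and Gaa (0.968). Those most like Itga6 were Slc38a7 (0.965), Fcrls (0.961), which is one of the microglia markers, and Abcc3 (0.946). Those most like Itgal were Svil (0.980), Smad4 (0.976) and Cpne1 (0.971). The nearest genes were Cry1 for Itgb7 (0.953), Golga5 for Itgb2 (0.952), Acly for Itgam (0.925), Abcg2 for Itgax (0.911), Dync1li2 for Itgb1 (0.931) and Emilin1 for Itgav (0.896).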

How the data were processed

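Microglial RNA of 14 libraries in 7 groups of 2 was analysed, grouped by the sample titles. The authors deposited whole-number counts per gene in 1 table and in 1 file per library, and the values of the 14 files equalled those of the table throughout. Chi-square per degree of freedom between libraries of a group was at least 408. Per the submitters' processing notes, Bowtie2 2.3.4.2 and HTSeq 0.6.1 were used with mm9. Neither annotation nor strand setting is stated, so reads from genes that overlap, on either strand, may be mixed (Cerkl with Itga4, over 8.04% of its exon length). Replicate 2 libraries were deeper in every group, and a floor of 3 counts was 0.104 to 0.197 CPM in replicate 1 and 0.0157 to 0.0298 CPM in replicate 2, covering counting error only.

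Counts were fitted in R 4.3.3 with edgeR 4.0.16 (TMM factors, a filter by group that removed 223 genes, robust quasi-likelihood dispersions, 1 mean per group, 7 residual degrees of freedom, common biological coefficient of variation 0.639). An SE is the size of a log2 fold change divided by the root of its F statistic. A change within a replicate number used log2 CPM with a prior count of 2, and sums over markers are CPM of total counts. Alternatives were upper-quartile scaling, total counts, DESeq2 1.42.0, voom in limma 3.58.1, no filter and a filter at 10 CPM in 2 libraries, a replicate block, the 4 libraries of a comparison alone, leaving out each library or the day 21 pair, and, added after seeing the data, Itgad counts joined to Itgax. The members, gene lists and tests were chosen with earlier results of these data known. Named are all members at all times, up to 4 called genes of a list in a comparison by size, and up to 3 like genes per member, some of which are not reported here. Itgad, Itgb8, Tln1, Fermt3, Tgfb1 and genes placed beside these were chosen after their values were seen. The edgeR fit was also run on counts simulated from its own dispersions, with changes put into day 7 only. No structure by replicate number was simulated, so that run cannot show how the fit behaves under it. Exon lengths and transcripts are from GENCODE M21 and promoters from RefSeq, both GRCm38, another build than the files'.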

Additional observations from a re-analysis of the deposited data

Results flagged for a closer look

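The change of Itgav between late and early times differed from 0 in a test of the difference itself, at a log2 fold change of -1.49 (edgeR adjusted p = 0.049, just under the threshold of 0.05). It averaged 41.5 CPM in late and 128 CPM in early libraries, and replicate 1 of day 7, at 339 CPM, was the highest library. Leaving out 1 library gave log2 fold changes of -1.71 to -1.07, and, as given above, the call held only without replicate 2 of day 7. Upper-quartile scaling, total counts, the stricter filter and leaving out the day 21 libraries each ended it too.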

How the results depend on the processing

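All calls of members at single times and over all stroke times kept their sign under every alternative run. DESeq2, limma-voom, no filter, the stricter filter and the block ended none. Total counts ended those of Itgal and Itgav at day 7 and of Itgal and Itgb5 at day 60, upper-quartile scaling that of Itgal at day 7, and the 4 libraries alone those of Itgav at day 7 and of Itga6 and Itgb5 at day 21. The cause was not tested. Members (and in parentheses genes) called by edgeR numbered 2 (631), 2 (1147), 4 (1751), 2 (892), 2 (1088) and 2 (1089) from day 1 to day 90, 1 (392) late against early and 2 (999) jointly.

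DESeq2 called 4 members at day 1, day 3, day 21 and day 90, 5 at day 60 and jointly, and 2 late against early. Its gene counts were 1878, 2667, 3158, 2447, 2653 and 2616 from day 1 to day 90, 1161 late against early and 3475 jointly. Without the day 21 libraries members called were 4 at day 3, 5 at day 60 and day 90, 0 late against early and 4 jointly. Genes numbered 1093, 1802, 1749 and 1796 at day 1, 3, 60 and 90, 679 late against early and 1797 jointly. Total counts gave 2 members at day 7, 0 at day 60 (692 genes) and 0 late against early. Upper-quartile scaling and the stricter filter (261 genes) also gave 0 members late against early, where only Itgav had been called. Limma-voom called 1830 genes at day 21 and 646 late against early.

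Among uncalled members, Itgam changed sign at day 1 with limma-voom (-0.37), at day 3 with total counts (0.040) and at day 21 with upper-quartile scaling (0.17), total counts (0.23) and the stricter filter (0.13). Itgav did so at day 21 (upper-quartile 0.14, total counts 0.17, limma-voom 0.090, stricter filter 0.10) and day 90 (0.13, 0.16, 0.099 and 0.059), Itgb1 at day 21 (upper-quartile 0.058, total counts 0.20), and Itgb2 late against early with limma-voom (0.038). These scalings moved the median of all genes by up to 0.216 (upper-quartile) and 0.347 (total counts), both at day 21.

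No label says what a replicate number marks. Same-numbered deviations correlated at 0.0710 to 0.677 (median 0.374) over 21 pairs of groups, and not every pair exceeded the 0.1 set for taking the numbers as pairs. All 21 were positive, so every library correlated best with its own number, a hint from the data and not from the design. With the replicate block, genes called were 1195, 2002, 2766, 1584, 1953 and 2006 from day 1 to day 90, 680 late against early and 1635 jointly. The block called Itgax at day 7 (1.90), day 21 (2.69) and day 90 (2.61), Itga6 at day 60 and Itgb2 over all stroke times. It turned the sign of uncalled Itgam at day 1 (-0.0074) and Itgav at day 21 (0.060) and day 90 (0.018).

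Leaving out 1 library, members called ranged over 0 to 3, 0 to 4, 1 to 5, 0 to 6, 0 to 5 and 0 to 5 from day 1 to day 90, 2 to 6 over all stroke times, 0 to 1 late against early and 0 to 5 jointly. Genes ranged over 76 to 1098, 225 to 1815, 355 to 2457, 68 to 2410, 132 to 1750, 129 to 1800, 702 to 3574, 146 to 899 and 224 to 2185 in the same order. Values that crossed 0 were all uncalled: Itgam at day 1 (-1.58 to 1.07), day 3 (-1.29 to 0.51) and day 21 (-0.30 to 0.33), Itgav at day 21 (-0.47 to 0.59), day 60 (-0.99 to 0.032) and day 90 (-0.47 to 0.60), Itgb1 at day 3 (-0.61 to 0.17) and day 21 (-0.38 to 0.067), and late against early Itgal (-1.06 to 0.37), Itga4 (-0.51 to 1.04), Itgb2 (-0.25 to 0.25) and Itgb7 (-1.05 to 0.36).

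The share of called genes that were higher was 69.9% at day 1 (DESeq2 57.3%, limma-voom 51.0%), 62.9% at day 3 (total counts 78.2%, limma-voom 48.4%) and 55.4% at day 7 (total counts 65.4%). It was 77.7% at day 21 (total counts 92.7%, DESeq2 65.3%, limma-voom 51.1%), 63.1% at day 60 (DESeq2 52.5%, limma-voom 50.4%), 65.2% at day 90 (total counts 81.2%, limma-voom 52.9%) and 43.1% over all stroke times (DESeq2 53.4%). Every comparison with sham rests on 2 libraries, and no member was limited by depth, with at least 232 counts in each library.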
